A study of Homo sapiens with 6 samples.

Results

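MHC class I molecules display peptides from inside the cell on its surface, where CD8 T cells and natural killer cells read them. This account follows 9 genes of that route, chosen by name from the 62700 genes of a deposited table of read counts: HLA-B, HLA-C and HLA-E, which encode heavy chains; B2M, which encodes the shared light chain; TAP1 and TAP2, the subunits of the peptide transporter; TAPBP, which encodes the loading chaperone tapasin; PSMB9, an immunoproteasome subunit; and NLRC5, which encodes the main activator of class I transcription. The RNA came from MKN-45 cells, per the labels, a long-used line from a human gastric adenocarcinoma. There were 3 libraries labelled NNMT knockdown and 3 control libraries. All cultures had been transfected with a lipid reagent and were harvested after 48 h, per the labels' protocols. NNMT encodes an enzyme that methylates nicotinamide. The transfected RNA is called siRNA in one field of the labels and shRNA in others. The controls are called untouched in the design text, but non-targeting in the sample labels. The 3 libraries of each group are described as independent biological replicates, all from the same line.

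In the class I route, the proteasome cuts proteins into peptides, and interferon replaces some of its catalytic subunits, PSMB9 among the replacements. The TAP transporter carries peptides into the endoplasmic reticulum, where tapasin holds it next to empty heavy chains until a peptide binds. Without B2M few class I molecules reach the surface. Interferon gamma raises most genes of the route together, in part through IRF1 and NLRC5, and many carcinomas lower some of them.

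Library totals were 40558680 to 45405621 reads in libraries labelled NNMT knockdown and 41591436 to 56067484 in controls, and the deepest was control replicate 3. NNMT itself had 2, 8 and 14 reads in replicates 1, 2 and 3 labelled NNMT knockdown, against 0, 8 and 12 in the controls. Its fitted log2 fold change was 0.48 (SE 0.929, adjusted p = 0.999 by edgeR, quasi-likelihood), in a separate fit with NNMT added to the genes kept by the filter on low counts. Lower NNMT RNA was thus not detected, but with so few reads a decrease could hardly be seen. The libraries labelled NNMT knockdown are called knockdown-labelled below. The 6 epithelial markers summed to 1662 to 1965 CPM (counts scaled to a common library total) in knockdown-labelled libraries and 1656 to 1739.8 CPM in controls. Their log2 fold changes were above 0 for 1, KRT19, and below 0 for 5, and 0 passed. EPCAM measured 17.2, 21.6 and 24.4 CPM in knockdown-labelled libraries and 18.3, 40 and 36.6 CPM in controls. CDH1 measured 28.6, 35 and 31.5 CPM in knockdown-labelled libraries and 28.9, 44.6 and 46.1 CPM in controls, and both genes were lowest of the controls in replicate 1. Of 11 gastric and intestinal marker genes, 7 averaged below 1 CPM, and GKN1, CDX2 and GATA4 had 0 reads in every library. The other 4 were present. MUC5AC measured 3.67, 42.5 and 4.4 CPM in knockdown-labelled libraries and 8.97, 3.75 and 5.35 CPM in controls. TFF1 averaged 6.15 ± 2.3 CPM in knockdown-labelled libraries and 4.38 ± 3.53 CPM in controls, and TFF2 1.54 ± 1.15 CPM in knockdown-labelled libraries and 1.79 ± 1.53 CPM in controls (SD, n = 3 each). MUC6, of gastric glands, averaged 50.3 ± 15.5 CPM in knockdown-labelled libraries and 51.5 ± 29.8 CPM in controls (SD, n = 3 each). The 8 leukocyte markers summed to 0.667 to 1.01 CPM in knockdown-labelled libraries and 0.892 to 1.35 CPM in controls, with CD3E and MS4A1 at 0 reads throughout. Among them CD14, of monocytes, measured 0.345, 0.198 and 0.322 CPM in knockdown-labelled libraries and 0.721, 1.12 and 0.624 CPM in controls (unadjusted p = 0.00591, adjusted p = 0.999, edgeR). Of 6 endothelial and fibroblast markers, 5 averaged below 1 CPM. The other, PECAM1, named after its values were seen, averaged 23 ± 4.61 CPM in knockdown-labelled libraries and 23.3 ± 2.54 CPM in controls (SD, n = 3 each).

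Class I RNA was present in every library at widely different levels. The highest level per length was that of the light chain, and the lowest were those of NLRC5 and PSMB9. None of the 9 genes differed between the groups beyond the spread between replicates. What varied was the replicates themselves: control replicate 3 was high and control replicate 1 low for nearly all 9 genes, in step with interferon-stimulated genes.

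The heavy and light chains came first in level. In TPM (reads per kilobase of merged exons, scaled to a common total), B2M averaged 609 ± 156 in the libraries labelled NNMT knockdown and 682 ± 317 in controls (SD, n = 3 each). That placed it at rank 142 of 37861 genes with a read. HLA-E, whose product presents signal peptides of other class I chains to natural killer cells, averaged 399.6 ± 37.2 TPM in knockdown-labelled libraries and 397 ± 89.1 TPM in controls. HLA-C averaged 366 ± 104 TPM in knockdown-labelled libraries and 377 ± 208 TPM in controls, and HLA-B 82.9 ± 28.9 TPM in knockdown-labelled libraries and 96.4 ± 62.1 TPM in controls. The range of B2M over the 6 libraries overlapped that of HLA-E, although B2M was the higher in all 6. HLA-E and HLA-C overlapped and changed places, with HLA-E higher in 4 of 6 libraries. HLA-B lay below HLA-C in every library, with no overlap of the ranges in TPM. In CPM, which takes no account of length, HLA-B was also the lower in every library. There the ranges overlapped, at 45 to 178 for HLA-B and 104 to 349 for HLA-C. Heavy-chain genes differ between people and resemble one another, and reads placed at several sites were not counted, so their levels depend on how well these cells match the reference genome.

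The loading genes came next. TAPBP averaged 69.3 ± 4.09 TPM in knockdown-labelled libraries and 64.5 ± 8.42 TPM in controls, TAP1 31.4 ± 1.96 TPM in knockdown-labelled libraries and 28.7 ± 17 TPM in controls, and TAP2 13.7 ± 2.33 TPM in knockdown-labelled libraries and 13.3 ± 4.18 TPM in controls (SD, n = 3 each). TAPBP and HLA-B overlapped, whereas TAPBP stood above TAP1 in all 6 libraries with a gap between their ranges. At the bottom, PSMB9 averaged 3.7 ± 1.57 TPM in knockdown-labelled libraries and 2.68 ± 3.11 TPM in controls and NLRC5 2.49 ± 0.104 TPM in knockdown-labelled libraries and 2.15 ± 1.85 TPM in controls, and these ranges overlapped. The order depended partly on the length used. HLA-B has 4623 bases of merged exons, of which 47.3% are shared with other annotated genes, but 1547 bases in its principal transcript in GENCODE 29. The TPM of each gene was therefore also converted to the length of its principal transcript, without scaling again to a common total. B2M has 3 principal transcripts and NLRC5 has 2, and the longest was used for each. By this measure the mean of HLA-C lay above that of HLA-E, at 597 ± 169.6 against 449 ± 41.8 in knockdown-labelled libraries and 616 ± 339.7 against 446 ± 100.1 in controls. HLA-B averaged 248 ± 86.5 in knockdown-labelled libraries and 288 ± 186 in controls, still below the means of HLA-C. By the same measure TAP2 averaged 56.6 ± 9.67 and TAP1 50.3 ± 3.14 in knockdown-labelled libraries, and TAP2 55.1 ± 17.3 and TAP1 46 ± 27.3 in controls (SD, n = 3 each). These are orders of means, and the order within each library was not compared. This second length was added after the levels had been seen.

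**Figure D1:**
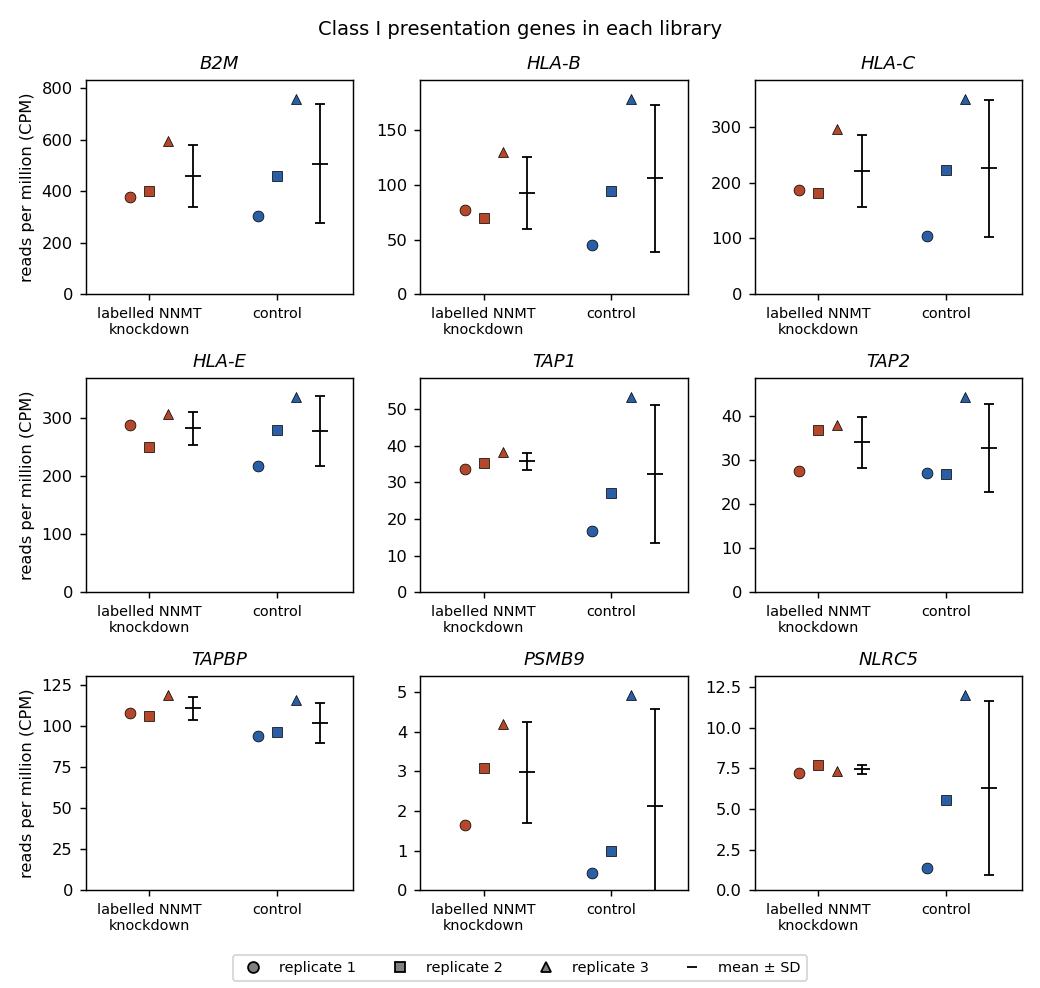
CPM (linear axis from 0) of the 9 genes in each library, with the libraries labelled NNMT knockdown left of the controls, a marker shape for each replicate and the mean ± SD (n = 3) beside them; the lower bar of PSMB9 in controls runs below 0. The control points are spread more widely than the others in each panel, from 1.37 to 12 CPM for NLRC5.

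The light chain and the 3 heavy chains shared their lowest and their highest library. B2M (chromosome 15, 44711358 to 44718851, plus strand, hg38) measured 378, 399.8 and 596 CPM in replicates 1, 2 and 3 labelled NNMT knockdown, against 302, 461 and 757 CPM in control replicates 1, 2 and 3. The lowest and the highest value were both controls, and the 3 knockdown-labelled libraries lay between them. The fitted fold was 0.908, with a 95% interval from 0.473 to 1.74 (adjusted p = 0.999 by edgeR).

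HLA-B (chromosome 6, 31353872 to 31367067, minus strand), a classical heavy chain that shows peptides to CD8 T cells, measured 77.1, 69.9 and 130.3 CPM in knockdown-labelled libraries, against 45, 94.7 and 178 CPM in controls. The controls spanned 3.96-fold and enclosed all 3 knockdown-labelled values. The fold was 0.879 (95% interval 0.301 to 2.57, adjusted p = 0.999 by edgeR). HLA-C (chromosome 6, 31268749 to 31272130, minus strand), the classical chain that is also a main ligand of killer cell receptors, measured 186, 182 and 295 CPM in knockdown-labelled libraries against 104, 223 and 349 CPM in controls. Again control replicates 1 and 3 were the extremes, and the fold was 0.988 (0.403 to 2.42, adjusted p = 1 by edgeR).

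HLA-E (chromosome 6, 30489509 to 30494194, plus strand) moved least of the 3 heavy chains. It measured 288, 250.0 and 306 CPM in knockdown-labelled libraries, against 216, 279 and 335 CPM in controls, a span of 1.55-fold. Its fold of 1.02 had a 95% interval from 0.812 to 1.29 (adjusted p = 0.999 by edgeR).

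The peptide transporter subunits differed in spread. TAP1 (chromosome 6, 32845209 to 32853816, minus strand) measured 33.7, 35.4 and 38.3 CPM in knockdown-labelled libraries, against 16.7, 27 and 53.3 CPM in controls. The knockdown-labelled libraries were close together while the controls spanned 3.19-fold, and the fold of 1.11 had an interval from 0.522 to 2.37. TAP2 (chromosome 6, 32821833 to 32838739, minus strand) measured 27.4, 36.7 and 38 CPM in knockdown-labelled libraries against 27.1, 26.9 and 44.2 CPM in controls. Its fold of 1.04 had an interval from 0.75 to 1.45, and its lowest library was control replicate 2. Both had an adjusted p of 0.999 by edgeR. Other annotated genes share 14.2% of the exon bases of TAP1, 19.5% of those of TAP2 and 21% of those of TAPBP.

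TAPBP (chromosome 6, 33299694 to 33314284, minus strand) had the smallest span of the 9, 1.27-fold over the 6 libraries. It measured 108, 106 and 119 CPM in knockdown-labelled libraries, against 94.1, 96.3 and 116 CPM in controls. It was the only one of the 9 whose highest library was not control replicate 3 but replicate 3 labelled NNMT knockdown. Its fold of 1.09 (95% interval 0.939 to 1.26) had the lowest unadjusted p of the 9, 0.232, and an adjusted p of 0.999 by edgeR.

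PSMB9 (chromosome 6, 32844136 to 32859851, plus strand), which replaces the constitutive subunit PSMB6 in the immunoproteasome, measured 1.65, 3.08 and 4.19 CPM in knockdown-labelled libraries, against 0.433, 0.996 and 4.92 CPM in controls. These values rest on 67, 140 and 182 reads in knockdown-labelled libraries, against 18, 48 and 276 reads in controls. The 2 lowest libraries were controls 1 and 2, and the highest was control 3. The fold of 1.4 had an interval from 0.287 to 6.82 (adjusted p = 0.999 by edgeR).

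NLRC5 (chromosome 16, 56989485 to 57083531, plus strand) had the most uneven groups. It measured 7.22, 7.71 and 7.36 CPM in knockdown-labelled libraries, against 1.37, 5.56 and 12 CPM in controls. The knockdown-labelled libraries agreed within a coefficient of variation of 3.35%, against 85% in controls, and all 3 lay between control replicates 2 and 3. The fold of 1.18 had an interval from 0.331 to 4.2 (adjusted p = 0.999 by edgeR).

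Between the groups, 0 of the 9 genes passed an adjusted p of 0.05 by edgeR, where the share called over all 20250 genes tested was 0%. At an unadjusted p under 0.05 the count was also 0 of 9, against 4.03% of all genes. DESeq2 called 8 genes of the whole table and limma-voom 0, none of them among the 9. All 9 genes overlapped between the groups. Of all genes tested 9.17% did not, 4.29% with the knockdown-labelled libraries higher and 4.88% with them lower, so 0 of 9 is near the background. The log2 fold change was above 0 for 6 of the 9 and below 0 for 3, with a median of 0.0592, beside 0.00333 over all genes. Exact two-sided permutation tests of log2 CPM gave p from 0.3 for TAPBP to 1 for HLA-B and HLA-C, where 3 against 3 libraries allow no p below 0.1. In these bulk cultures, a change in the share of cells that express a gene and a change in RNA per cell cannot be told apart.

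The sign turned when 1 library was left out for each of the 9 genes except TAPBP and PSMB9. Without control replicate 3 the log2 fold changes of HLA-B, HLA-C and B2M were 0.4, 0.43 and 0.26, against -0.19, -0.02 and -0.14 with all libraries. That of PSMB9 was 2.03 against 0.48, with an adjusted p of 0.716 by edgeR, and that of NLRC5 was 1.09 against 0.24. Without control replicate 1, HLA-E, TAP1, TAP2 and NLRC5 had log2 fold changes of -0.11, -0.15, -0.05 and -0.23.

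**Figure D2:**
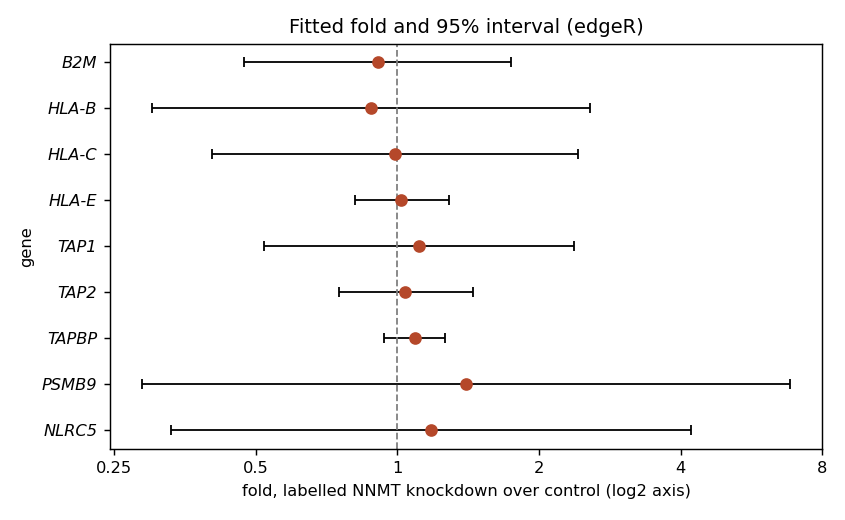
Fitted fold of each gene in libraries labelled NNMT knockdown over controls (edgeR, log2 axis), with 95% intervals as bars and a dashed line at a fold of 1. All 9 intervals cross 1, and they run from the narrow one of TAPBP (0.939 to 1.26) to that of PSMB9 (0.287 to 6.82).

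Ratios within a library do not depend on how libraries are scaled, and 6 were compared. The log2 ratio of HLA-B to B2M reads, heavy to light chain, was -2.29, -2.51 and -2.19 in knockdown-labelled libraries, against -2.75, -2.28 and -2.09 in controls (exact two-sided permutation p = 0.9, adjusted p = 1 over the 6 ratios). HLA-C to HLA-B varied least of the 6, at 1.28 ± 0.1 in knockdown-labelled libraries and 1.14 ± 0.15 in controls (SD, n = 3 each, exact permutation p = 0.3, adjusted p = 0.9). HLA-E to HLA-B was 1.9, 1.84 and 1.23 in knockdown-labelled libraries against 2.26, 1.56 and 0.91 in controls (exact permutation p = 1, adjusted p = 1). HLA-B is the denominator and varied more than HLA-E, so this ratio largely mirrors the level of HLA-B. TAP1 to TAP2 was 0.3, -0.05 and 0.01 in knockdown-labelled libraries against -0.7, 0.01 and 0.27 in controls (exact permutation p = 0.6, adjusted p = 0.9). For the immunoproteasome, PSMB9 to PSMB6 was -5.38, -4.79 and -3.87 in knockdown-labelled libraries, against -7.39, -5.99 and -3.61 in controls (exact permutation p = 0.5, adjusted p = 0.9). TAP1 to its neighbour PSMB9 was 3.69 ± 0.59 in knockdown-labelled libraries and 4.49 ± 0.95 in controls (SD, n = 3 each, exact permutation p = 0.3, adjusted p = 0.9). For all 6 ratios the groups overlapped, and the lowest adjusted p was 0.9 by the exact permutation test.

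The spread between replicates was the main feature of these genes. By CPM, control replicate 3 was the highest of the 6 libraries for 8 of the 9, beside 19.9% of all genes tested. Control replicate 1 was the lowest for 8 of the 9, beside 18.9% of all genes. The level in control replicate 3 was 11.4-fold that in control replicate 1 for PSMB9, 8.78-fold for NLRC5, 3.96-fold for HLA-B and 3.19-fold for TAP1, but 1.24-fold for TAPBP. Among knockdown-labelled libraries, replicate 3 was the highest for 8 of the 9, all but NLRC5, beside 32.6% of all genes. Its excess over replicate 1 was smaller, 2.54-fold for PSMB9, 1.69-fold for HLA-B and 1.02-fold for NLRC5.

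The coefficient of variation was larger in controls than in knockdown-labelled libraries for all 9 genes, beside 46.4% of all genes tested. Its median over the 9 was 17% in knockdown-labelled libraries and 54.3% in controls, against 13.6% and 12.7% over all genes. In controls, 0.291% of all genes tested varied as much as PSMB9, 1.56% as much as NLRC5 and 4.59% as much as HLA-B, but 52% as much as TAPBP. Since these 9 genes were picked with earlier results of the same libraries known, these shares describe the genes and are no test.

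**Figure D3:**
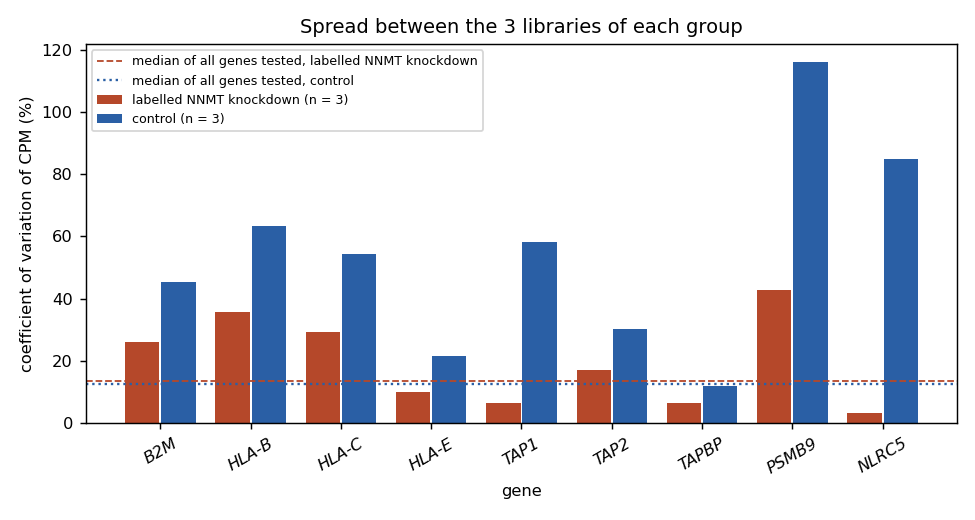
Coefficient of variation of CPM (percent, axis from 0) over the 3 libraries labelled NNMT knockdown and the 3 controls for each gene, with lines at the medians of all genes tested (13.6% and 12.7%). The control bar is the taller for each of the 9 genes, and PSMB9 reaches 116% and NLRC5 85% in controls.

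Taken as log2 CPM minus each gene's own mean over the 6 libraries, the median of the 9 genes was -0.16, 0 and 0.33 in replicates 1, 2 and 3 labelled NNMT knockdown, against -0.94, -0.07 and 0.73 in control replicates 1, 2 and 3. The same median over all genes tested lay between -0.02 and 0.03 in every library. All 9 genes lay above their own mean in control replicate 3 and in replicate 3 labelled NNMT knockdown, and 0 of 9 did in control replicate 1.

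**Figure D4:**
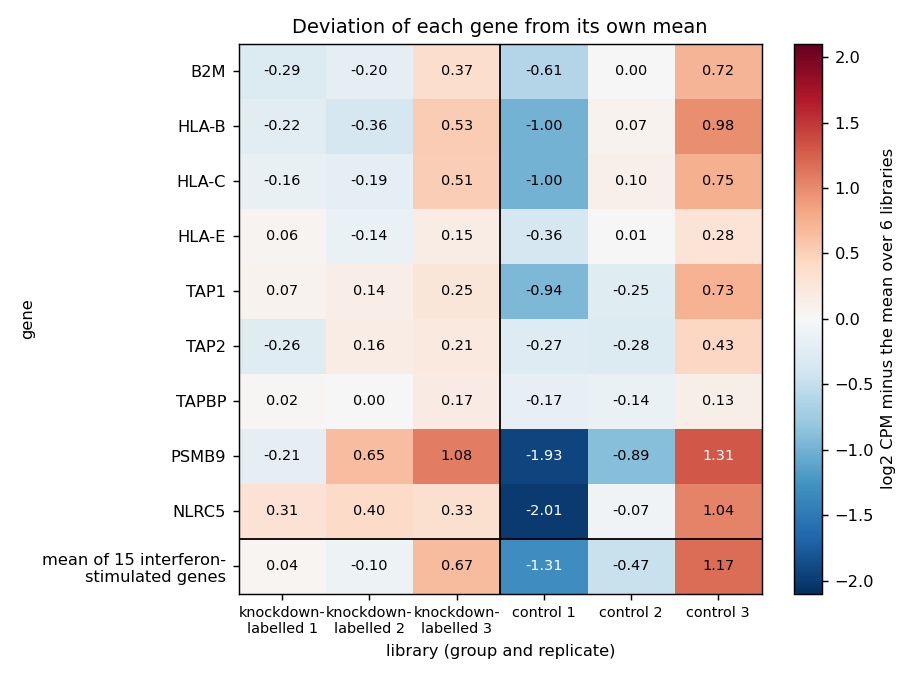
Log2 CPM minus the gene's mean over the 6 libraries, for the 9 genes and for the mean of 15 interferon-stimulated genes, with libraries labelled NNMT knockdown left of the line and controls right of it. Control 1 is below the mean in every row and control 3 above it in every row, with NLRC5 at -2.01 and 1.04.

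Interferon-stimulated genes moved with them. Of 16 listed, 15 were tested, and each of the 15 was highest in control replicate 3. Their mean deviation was 0.04, -0.1 and 0.67 in knockdown-labelled libraries, against -1.31, -0.47 and 1.17 in controls, the same libraries high and low as for the class I genes. ISG15, an interferon-induced ubiquitin-like protein, measured 138, 132 and 171 CPM in knockdown-labelled libraries against 82, 104 and 206 CPM in controls. Pearson's r of log2 CPM with the mean of these 15 genes over the 6 libraries ran from 0.828 for TAP2 to 0.972 for TAP1. An r as high as that of TAP1 was found for 0.311% of all genes tested, and one as high as that of TAP2 for 4.27%. Of the 15 interferon-stimulated genes 0 passed an adjusted p of 0.05 by edgeR and 0 an unadjusted p of 0.05, and their median log2 fold change was 0.0399. Control replicate 3 was also the library with the most reads. Of the 4 gastric markers tested, 3 (MUC6, TFF1 and TFF2) were also highest in control replicate 3, while MUC5AC was highest in replicate 2 labelled NNMT knockdown and, among controls, in replicate 1. MUC6 measured 34, 52 and 64.9 CPM in knockdown-labelled libraries and 25.7, 44.6 and 84.1 CPM in controls. The part of depth, of the interferon genes or of the gastric markers in the spread of the class I genes was not tested.

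Among themselves, the 36 pairs of the 9 genes had r from 0.596 (HLA-E with TAP2) to 0.987 (HLA-B with HLA-C and HLA-B with B2M), with a median of 0.85, and 26 pairs were above 0.8. NLRC5 correlated most with TAP1, at 0.963, and least with TAP2, at 0.66. All these values share the same 6 libraries.

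Interferon and NLRC5 are known to act on class I genes through short elements just before the start of transcription. RefSeq promoter windows (GRCh38.p14) were found for 7 of the 9, the exceptions being HLA-E and NLRC5. Where a gene had several windows the first listed was used, as for TAP1, which had 2. The 250 bases before each start were searched on both strands for the core of the interferon-stimulated response element (GAAA or GAA, then NN, then GAAA), the NF-kB consensus, the TGACGC sequence of the X2 box and the CCAAT sequence of the Y box. These motifs are known from class I promoters and were not picked blind to these sequences. The stretches below run 5′ to 3′ on the gene's strand, with matches in capitals. Overlapping matches run together, and each stretch has 6 flanking bases where the bases before the start allow. A stretch is shown for each gene with a match within 200 bases of the start, and HLA-B and HLA-C come first for their similar layout. Matches farther than 200 bases from the start, a CCAAT sequence in each of TAP1 and PSMB9, are counted but not shown.
HLA-B, chr6:31357225-31357362, minus strand: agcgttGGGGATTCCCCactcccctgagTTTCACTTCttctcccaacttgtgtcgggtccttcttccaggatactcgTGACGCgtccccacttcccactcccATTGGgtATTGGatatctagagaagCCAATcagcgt
HLA-C, chr6:31272138-31272290, minus strand: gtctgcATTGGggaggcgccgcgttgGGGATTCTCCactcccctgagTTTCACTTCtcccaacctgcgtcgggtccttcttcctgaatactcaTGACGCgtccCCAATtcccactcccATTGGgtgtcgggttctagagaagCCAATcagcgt
B2M, chr15:44711367-44711478, plus strand: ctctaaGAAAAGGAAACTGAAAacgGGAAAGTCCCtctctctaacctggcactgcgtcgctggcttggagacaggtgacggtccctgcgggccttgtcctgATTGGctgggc
TAP1, chr6:32853761-32853844, minus strand: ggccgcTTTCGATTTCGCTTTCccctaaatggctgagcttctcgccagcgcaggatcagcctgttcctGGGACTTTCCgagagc
TAP2, chr6:32838763-32838808, minus strand: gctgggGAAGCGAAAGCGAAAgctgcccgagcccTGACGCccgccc
TAPBP, chr6:33314079-33314140, minus strand: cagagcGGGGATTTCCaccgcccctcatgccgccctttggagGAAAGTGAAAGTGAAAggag

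HLA-B and HLA-C have a similar layout: an NF-kB match, then a response element on the other strand from -155 to -147 of HLA-B and -151 to -143 of HLA-C, then TGACGC from -106 and -105, then CCAAT sequences. HLA-C also holds a CCAAT sequence before the NF-kB match, from -192 to -188, and the CCAAT sequences differ in number and place. TAP1, TAP2, TAPBP and B2M each hold a pair of overlapping response element matches. In all, 6 of the 7 windows hold the response element core, against 9.08% of 35116 promoter windows in the table. The NF-kB consensus is in 5 of 7 (6.88% of all), TGACGC in 3 of 7 (7.67%) and CCAAT in 5 of 7 (32%). PSMB9 had no response element match in its own 250 bases. Its start lies 488 bases from the TAP1 start used here, on the opposite strand. From these starts the genes are transcribed away from each other, and the TAP1 response element matches lie between them. TAPBP holds a response element pair at -20 to -5 and had the smallest span of the 9. Any link between the matches and the spread over the libraries was not tested. These matches describe letters, not binding, and some GENCODE 44 gene models begin upstream of the RefSeq start.

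The other genes that supply peptides did not differ detectably between the groups. Of 13 listed and tested, 0 passed an adjusted p of 0.05 by edgeR in either direction, 8 lay above 0 and 5 below, and the median log2 fold change was 0.077. Control replicate 3 was the highest library for 8 of the 13, beside 19.9% of all genes tested. The median coefficient of variation was 10.9% in knockdown-labelled libraries and 13.2% in controls, and in controls it reached 38.2% for PSMB10, 32.7% for PSMB8, 23.3% for ERAP1 and 20.7% for ERAP2. ERAP1, a peptide-trimming protease named after its values were seen, measured 47.2, 43.8 and 58.1 CPM in knockdown-labelled libraries and 37.9, 44.1 and 59.3 CPM in controls, lowest in control replicate 1 and highest in control replicate 3. The lowest p was that of PSMB10, another immunoproteasome subunit, at 2.78 ± 0.0471 CPM in knockdown-labelled libraries and 2.13 ± 0.813 CPM in controls (SD, n = 3 each, log2 fold change 0.39, SE 0.285, adjusted p = 0.999). THOP1, a cytosolic peptidase, measured 53.2 ± 8.91 CPM in knockdown-labelled libraries and 48.2 ± 4.72 CPM in controls. The constitutive subunit PSMB6 measured 71.8 ± 12.5 CPM in knockdown-labelled libraries and 65.3 ± 6.3 CPM in controls, and PSMB5 109 ± 13.2 CPM in knockdown-labelled libraries and 102 ± 3.8 CPM in controls. PSMB8, the third immunoproteasome subunit, was added after its values were seen: it measured 14.5, 22.9 and 19.7 CPM in knockdown-labelled libraries against 15.4, 16.9 and 27.4 CPM in controls, highest in control replicate 3. It lies between TAP2 and TAP1 and shares 139 exon bases with PSMB9, and without strand the reads there cannot be told apart.

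Of 8 other loading, folding and translocation genes of the endoplasmic reticulum, all but TAPBPL spanned at most 1.3-fold over the 6 libraries. TAPBPL, which encodes a tapasin-related protein and was named after its values were seen, measured 2.32, 1.92 and 2.65 CPM in knockdown-labelled libraries and 1.68, 2.39 and 3.58 CPM in controls, lowest in control replicate 1 and highest in control replicate 3. None passed (0 of 8, median log2 fold change -0.0405, edgeR). PDIA3, a disulfide isomerase of the loading complex, measured 535 ± 41.2 CPM in knockdown-labelled libraries and 583 ± 31 CPM in controls, and CANX, the lectin chaperone calnexin, 597 ± 31.1 CPM in knockdown-labelled libraries and 638 ± 20.9 CPM in controls (SD, n = 3 each). HSPA5, a general chaperone, measured 719 ± 63.6 CPM in knockdown-labelled libraries and 764 ± 50.5 CPM in controls, and SEC61B, a translocon subunit, 38.3 ± 3.45 CPM in knockdown-labelled libraries and 36.5 ± 3.3 CPM in controls.

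Of 24 genes that control class I transcription, 0 passed an adjusted p of 0.05 by edgeR, 1 passed an unadjusted p of 0.05 (4.03% of all genes did), 12 lay above 0 and 12 below. The groups did not overlap for 2 of the 24, beside 9.17% of all genes, so both counts are near the background. The lowest p was that of ATF1, a CREB-family factor, at 21.8 ± 1.89 CPM in knockdown-labelled libraries and 26.6 ± 1.86 CPM in controls (SD, n = 3 each). Its log2 fold change was -0.29 (SE 0.104, adjusted p = 0.999), with no overlap of the groups. SOCS1, a feedback inhibitor of interferon signalling, measured 10.7 ± 0.491 CPM in knockdown-labelled libraries and 8.78 ± 1.24 CPM in controls (log2 fold change 0.28, SE 0.148), also without overlap. NFKB1 measured 31.4 ± 2.9 CPM in knockdown-labelled libraries and 35.6 ± 3.27 CPM in controls, and NFYB, a subunit of the CCAAT-binding complex, 28.8 ± 2.13 CPM in knockdown-labelled libraries and 31.2 ± 2 CPM in controls. IRF1, an interferon-induced factor named after its values were seen, measured 26.1, 20.7 and 34.5 CPM in knockdown-labelled libraries against 14.6, 25.6 and 37.9 CPM in controls, lowest in control replicate 1 and highest in control replicate 3. Control replicate 3 was the highest library for 8 of the 24, beside 19.9% of all genes tested. The median coefficient of variation of the 24 was 7.8% in knockdown-labelled libraries and 8.33% in controls.

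The genes most like 3 of the members were found among 11510 other genes with a mean of at least 5 CPM. Nearest to HLA-B were SUPT3H (r = 0.9947), BTN3A1 (0.9921), a butyrophilin gene, and BBS2 (0.9913). BTN3A1 measured 40.6, 37 and 48.8 CPM in knockdown-labelled libraries, against 32.9, 42 and 56 CPM in controls. Nearest to B2M were AFF1 (0.9929), SLC44A1 (0.9928) and LGR4 (0.9924), and nearest to NLRC5 were PPARA (0.9954), BET1L (0.9946) and CCDC146 (0.9891). With 6 libraries a high r is common: 288 of the 11510 genes had an r above 0.9 with HLA-B, 279 with B2M and 129 with NLRC5. BBS2 varied far less than HLA-B, between 34.5 and 39.2 CPM over the 6 libraries.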

How the data were processed

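The authors deposited raw read counts per gene for 6 libraries of paired reads of 150 bases. Counts came from featureCounts 2.0.6 on alignments to hg38 with GENCODE 44, per the file headers. The read aligner was not given in the sources used here. Options were set for paired reads but none to count pairs as 1 and none for strand, although the labels call the libraries stranded. Among genes with 2 to 10 counts, 73.4% to 76.7% of counts were even, against 49.8% to 50.7% at 1000 or more, so mates appear counted singly and counting error is understated. All 62700 identifiers matched a symbol. Genes were filtered with filterByExpr (20250 kept, all 9 members among them) and scaled by TMM. They were tested with edgeR 4.0.16 (R 4.3.3, robust quasi-likelihood, group as sole term, Benjamini-Hochberg over all genes); SE came from the fold change and F. CPM and TPM were computed from counts and deposited merged exon lengths; log2 CPM used a pseudocount of 0.1. DESeq2 1.42.0, limma 3.58.1, other scalings and filters, halved counts, a replicate block and leaving out each library were alternatives. Members and lists were chosen with earlier results of these data known. Genes named by rule are the 9 members, NNMT, up to 4 genes per list with the lowest p, and 3 genes nearest to each of HLA-B, B2M and NLRC5. All other listed genes and markers named, among them ERAP2 and the markers with 0 reads, were picked after their values were seen. Pairs of libraries differed beyond sampling noise (chi-square per gene at least 12 in 15 pairs). A gene of the transcription list is not reported here.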

Additional observations from a re-analysis of the deposited data

How the results depend on the processing

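Over 8 alternatives with all libraries and 6 that left out a library, 0 of 126 values of the 9 genes passed the adjusted threshold, and the lowest adjusted p was 0.716 (edgeR, PSMB9 without control replicate 3). The count of genes called was 0 as reported, 72 without a filter on low counts, 8 with DESeq2, and 0 to 1 when a library was left out. The median log2 fold change of the 9 was between -0.151 and 0.399 when a library was left out, and 0.098 with the replicate block. That block pairs libraries by replicate number alone, and 0 genes were called with it. Deviations of same-numbered libraries correlated at 0.0553, -0.1 and 0.218, against -0.248 to 0.172 for libraries with different numbers. HLA-C turned to 0.1 with limma-voom and to 0.1 with the replicate block; these fits gave PSMB9 0.97 and 1.01, NLRC5 0.6 and 0.62, TAP1 0.27 and 0.3, and HLA-B -0.04 in both. Leaving out a library moved the log2 fold change of HLA-B between -0.55 and 0.4, HLA-C between -0.36 and 0.43, HLA-E between -0.11 and 0.18, B2M between -0.4 and 0.26, TAP1 between -0.15 and 0.7, TAP2 between -0.06 and 0.32, and NLRC5 between -0.23 and 1.09; TAPBP stayed between 0.07 and 0.21 and PSMB9 between 0.02 and 2.03. The cause was not tested. Leaving out a library moved the difference of the log2 ratio of PSMB9 to PSMB6 between 0.12 and 2.01 and that of TAP1 to TAP2 between -0.05 and 0.43, and 6 values of the ratios changed sign; dividing by gene length cannot move these differences. Depth limits PSMB9 most, with 18 reads in control replicate 1.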

Other observations

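Class I-like chains were a mixed group. Of 12 listed, 10 were tested, 0 passed an adjusted p of 0.05 by edgeR (0 at an unadjusted p of 0.05), and their median log2 fold change was 0.0246. FCGRT, the neonatal Fc receptor chain, which also pairs with B2M, measured 131, 109.7 and 129 CPM in libraries labelled NNMT knockdown, against 106, 113 and 113 CPM in controls. ULBP3, a stress ligand of the NKG2D receptor, averaged 9.9 ± 1.27 CPM in knockdown-labelled libraries and 8.87 ± 2.03 CPM in controls, and MICA, another such ligand, 25.6 ± 1.27 CPM in knockdown-labelled libraries and 24.6 ± 0.786 CPM in controls (SD, n = 3 each). HLA-G averaged 0.614 ± 0.155 CPM in knockdown-labelled libraries and 0.751 ± 0.307 CPM in controls. HLA-F, named after its values were seen, measured 4.07, 4.1 and 8.97 CPM in knockdown-labelled libraries, against 2.67, 5.29 and 8.9 CPM in controls, with replicate 3 the highest in both groups.

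Class II presentation was nearly silent: 8 of 11 listed genes averaged below 1 CPM, and the list summed to 5.4 to 6.25 CPM in knockdown-labelled libraries and 5.25 to 6.06 CPM in controls. Its control gene CIITA averaged 1.73 ± 0.182 CPM in knockdown-labelled libraries and 1.49 ± 0.235 CPM in controls, CTSS, a lysosomal protease, 1.88 ± 0.143 CPM in knockdown-labelled libraries and 1.39 ± 0.349 CPM in controls, and the invariant chain gene CD74 0.483 ± 0.347 CPM in knockdown-labelled libraries and 0.525 ± 0.133 CPM in controls (SD, n = 3 each). HLA-DMA measured 1.53, 1.54 and 1.13 CPM in knockdown-labelled libraries against 1.73, 2.16 and 1.85 CPM in controls, without overlap but with an adjusted p of 0.999 by edgeR. Of 8 genes linked to class I or its turnover, 0 passed. SPPL3, a protease that trims glycosylation enzymes, had the lowest p of them, at 74.5 ± 8.36 CPM in knockdown-labelled libraries and 83.5 ± 3.52 CPM in controls. MARCHF9, a ubiquitin ligase, averaged 33.9 ± 5.54 CPM in knockdown-labelled libraries and 39.6 ± 4.73 CPM in controls, NBR1, an autophagy receptor, 102 ± 6.21 CPM in knockdown-labelled libraries and 107 ± 4.93 CPM in controls, and TMEM127 120.5 ± 2.17 CPM in knockdown-labelled libraries and 115 ± 7.07 CPM in controls (SD, n = 3 each).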
